A study of Mus musculus with 12 samples.

Results

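Endothelial cells line blood vessels, and the 10 genes Pecam1, Emcn, Eng, Cd34, Esam, Robo4, Mmrn2, Nos3, Plvap and Egfl7 are widely used to recognise them in tissue. They were chosen by symbol from a table of 18211 genes measured by RNA sequencing of bulk tumors, and all 10 were present and passed the filter on low counts that left 13563 genes for testing. Female C57BL/6 mice, 5 weeks old at purchase, carried 12 tumors under the skin that arose from MC38, a mouse line of colorectal adenocarcinoma. The mice were divided into 4 groups at day 7, and 3 tumors of each group were sequenced. CK mice received vehicle (DMSO in corn oil). PB-020 mice received PB-020, which inhibits the receptor of insulin-like growth factor 1 (IGF-1R), at 50 mg/kg per day by gavage. Anti-PD-1 mice received the antibody RMP1-14, which blocks the T cell checkpoint receptor PD-1, at 200 µg per mouse on days 9, 12, 15 and 18. PB-020/anti-PD-1 mice received both. Tumor cells and host cells are from the same species, so that a transcript could come from either, and in bulk tissue fewer endothelial cells and less RNA per endothelial cell cannot be told apart.

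The endothelium forms the inner surface of vessels, controls what crosses into tissue and decides which blood cells adhere. Growing vessels in tumors are led by tip cells that respond to vascular endothelial growth factor, and behind them the sprout forms a lumen, seals its junctions and recruits pericytes. The 10 genes cover different parts of this biology. Pecam1 and Esam encode adhesion molecules of the junctions between endothelial cells. Emcn encodes a mucin-like surface sialoprotein of veins and capillaries, and Cd34 encodes a sialomucin that is also found on blood progenitors and on some stromal fibroblasts. Eng encodes endoglin, a co-receptor of the receptor ALK1 for bone morphogenetic proteins. Robo4 is an endothelial receptor of the roundabout family, Mmrn2 encodes a matrix protein laid down beneath endothelium, and Egfl7 encodes a secreted protein of growing vessels whose locus also holds Mir126a. Nos3 encodes the endothelial nitric oxide synthase, and Plvap encodes the protein of the diaphragms that span caveolae and fenestrae.

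The 10 genes lie on 8 mouse chromosomes in the GRCm38.p6 annotation of RefSeq. Cd34 (gene 12490) spans positions 194938821 to 194961292 of chromosome 1 and Nos3 (gene 18127) spans positions 24364816 to 24384474 of chromosome 5. Robo4 (gene 74144) and Esam (gene 69524) share chromosome 9, at positions 37401902 to 37414023 and 37528089 to 37538319. Eng (gene 13805) occupies positions 32646595 to 32682669 and Egfl7 (gene 353156) positions 26581083 to 26592682 of chromosome 2. Pecam1 (gene 18613) is at positions 106654213 to 106715281 of chromosome 11, Emcn (gene 59308) at 137341062 to 137431069 of chromosome 3, Mmrn2 (gene 105450) at 34375504 to 34404287 of chromosome 14 and Plvap (gene 84094) at 71497753 to 71511806 of chromosome 8. The last 294 bases of Nos3 overlap Atg9b, which is read in the opposite direction. The strand setting of the library is not given in the sources used here, so that reads in this stretch cannot be assigned with certainty. Eng shared 61 bases with Fpgs and Plvap shared 1872 bases with Gtpbp3.

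Promoter sequences were shown because most of these genes varied together from tumor to tumor, and because endothelial promoters are a textbook case of control by ETS factors. RefSeq start sites on GRCm38.p6 gave 7 promoters for 5 of the 10 genes (Cd34, Emcn, Eng, Robo4 and 3 starts of Egfl7). Each promoter covered 250 bases before to 50 bases after the start. The stretches printed are the 150 bases that end before the first annotated base of any transcript there, and capitals mark the ETS core AGGAAG, read as CTTCCT where it lies on the opposite strand.
Cd34, chr1:194938669-194938818, plus strand: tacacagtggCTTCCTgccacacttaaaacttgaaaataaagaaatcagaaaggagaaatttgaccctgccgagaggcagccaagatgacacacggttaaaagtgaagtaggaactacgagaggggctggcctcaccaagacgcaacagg
Eng, chr2:32646445-32646594, plus strand: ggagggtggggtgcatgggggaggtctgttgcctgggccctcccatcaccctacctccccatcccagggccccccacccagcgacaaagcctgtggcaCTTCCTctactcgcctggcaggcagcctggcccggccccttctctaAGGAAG
Emcn, chr3:137340912-137341061, plus strand: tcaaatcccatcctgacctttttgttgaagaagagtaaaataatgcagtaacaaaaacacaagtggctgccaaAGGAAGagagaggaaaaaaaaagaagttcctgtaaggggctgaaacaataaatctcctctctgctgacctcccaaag
Robo4, chr9:37401747-37401896, plus strand: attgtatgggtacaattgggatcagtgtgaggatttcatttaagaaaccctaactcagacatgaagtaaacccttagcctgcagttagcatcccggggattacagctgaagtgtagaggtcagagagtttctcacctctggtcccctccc
AGGAAG was found on either strand in 6 of the 7 promoters, at least once for each of the 5 genes, and in 35.4% of all 32851 mouse promoters of the same length. The match of Robo4 lay outside the stretch printed. That of Cd34 began at position -142 from the start and that of Emcn at -93, and Eng had matches at -52 and -6. The second ETS core searched, CCGGAA, was in 0 of the 7 and in 14.9% of all promoters. The GATA site AGATAA, the TATA box TATAAA and the SOX site ACAATG were in 0 of the 7, against 11.2%, 13.6% and 12.6% of all promoters. The KLF/SP box CCGCCC was in 1 of the 7, a start of Egfl7, and in 35.7% of all promoters. Both ETS cores hold GGAA but require another base before it, so that 1 GGAA cannot match both, and a match describes letters only. The stretch of Robo4 is shown for contrast, since it holds none of these motifs.

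Levels were compared per length of transcript, in FPKM (fragments scaled to transcript length and to the library total). Cd34 stood apart from the other 9 genes in every tumor. Its group means were 477 ± 9.83 FPKM in CK, 470 ± 31.0 with PB-020, 347 ± 55.5 with anti-PD-1 and 332 ± 7.25 with both agents (SD, n = 3). By its mean over the 12 tumors it was the 177th of 13563 genes tested. The next gene, Plvap, had a mean of 20.6 ± 2.33 FPKM in CK and took rank 4613, and Pecam1 had 18.9 ± 3.41 FPKM (SD, n = 3 for both). Emcn followed at 13.4 ± 3.67, Eng at 9.05 ± 1.83, Egfl7 at 9.01 ± 2.95 and Esam at 6.95 ± 1.60 FPKM in CK (SD, n = 3). The lowest were Robo4 at 4.01 ± 1.32, Mmrn2 at 3.34 ± 0.390 and Nos3 at 2.25 ± 0.0907 FPKM (SD, n = 3). The order of the means was the same in all 4 groups. In CK, Plvap and Pecam1, Pecam1 and Emcn, Emcn and Eng, Eng and Egfl7, Egfl7 and Esam, and Robo4 and Mmrn2 overlapped between tumors, whereas Cd34 lay clear of Plvap, Esam of Robo4 and Mmrn2 of Nos3. Libraries held 16545394 to 17217035 expected counts, so that the least abundant gene, Nos3, rested on 91.0 to 155 counts and Cd34 on 12233 to 19764.

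**Figure D1:**
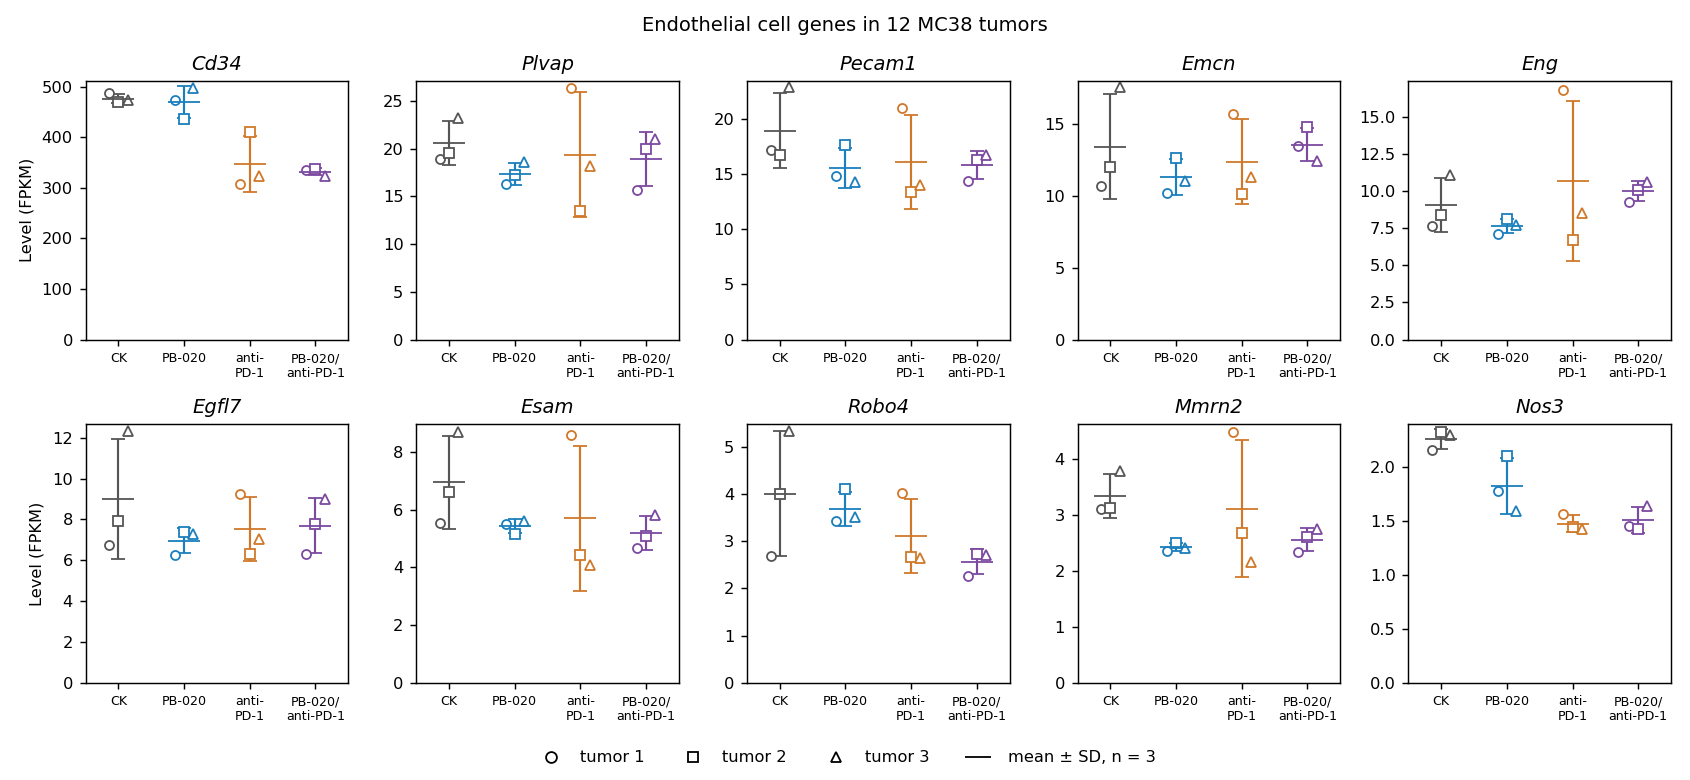
Level of each of the 10 genes in FPKM (linear axis from 0) in the 12 tumors by group, with tumors 1, 2 and 3 as circle, square and triangle and the mean ± SD of 3 tumors as a bar. The 6 tumors with anti-PD-1 sit at 308 to 411 FPKM for Cd34, below the 6 others at 437 to 498, while most other genes overlap between groups and CK 3 and anti-PD-1 1 stand high.

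The labels were checked against other cell types. All 10 genes were detected in all 12 tumors, as were Cdh5, the cadherin of endothelial junctions, at 8.24 to 18.7 FPKM and Tie1 at 2.48 to 5.08 FPKM. The 7 markers of epithelial tumor cells summed to 2.23 to 4.36 FPKM, and only Cdh1 of them passed the filter. Since these are MC38 tumors, that low sum cannot measure the share of tumor cells. The 10 skeletal muscle markers summed to 573 FPKM in anti-PD-1 1 and to 8.64 to 54.2 FPKM in the other 11 tumors. That tumor also had the highest sums of T cell markers (77.3 FPKM) and of pan-leukocyte and macrophage markers (2919 FPKM). The part of these cells in the levels of the endothelial genes was not tested.

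Most of the 10 genes varied together from tumor to tumor, with the exception of Cd34 and in part Nos3. CK 3 was the highest of the 12 tumors for Pecam1, Emcn, Esam, Robo4 and Egfl7, and anti-PD-1 1 for Eng, Mmrn2 and Plvap. Within their own groups, CK 3 was the highest of the 3 tumors for 8 of the 10 genes and anti-PD-1 1 for 9 of 10. Summed over the 9 genes other than Cd34, the level was 107 FPKM in CK 3 and 108 FPKM in anti-PD-1 1, against 61.1 to 82.7 FPKM in the other 10 tumors. The spread of a group depended in part on whether it held 1 of these tumors, as for Eng in anti-PD-1 (10.7 ± 5.40 FPKM, SD, n = 3).

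Likeness was measured on log2 CPM (counts scaled to library size, on a log scale) across the 12 tumors, as a description. Among the 9 genes other than Cd34, Pearson's r was above 0 in 35 of 36 pairs, with a median of 0.70. When each tumor was expressed as its deviation from its group mean, so that no group difference could contribute, all 36 pairs were above 0 with a median of 0.80. Against the mean of the other 9 genes, r was 0.94 for Pecam1 and Esam, 0.85 for Egfl7, 0.82 for Mmrn2, 0.78 for Robo4 and Plvap, 0.66 for Emcn, 0.58 for Eng and 0.47 for Nos3. Cd34 had r = -0.05 with the mean of the other 9, and over deviations from the group means its 9 pairs were all below 0 (median -0.59). All values come from the same 12 libraries, and anti-PD-1 1 is both the lowest tumor for Cd34 and among the highest for the others. Without anti-PD-1 1, r with the mean of the other 9 was 0.23 for Cd34, 0.66 for Nos3, 0.61 for Emcn and 0.47 for Eng, so that Nos3 then lay above Emcn and Eng.

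**Figure D2:**
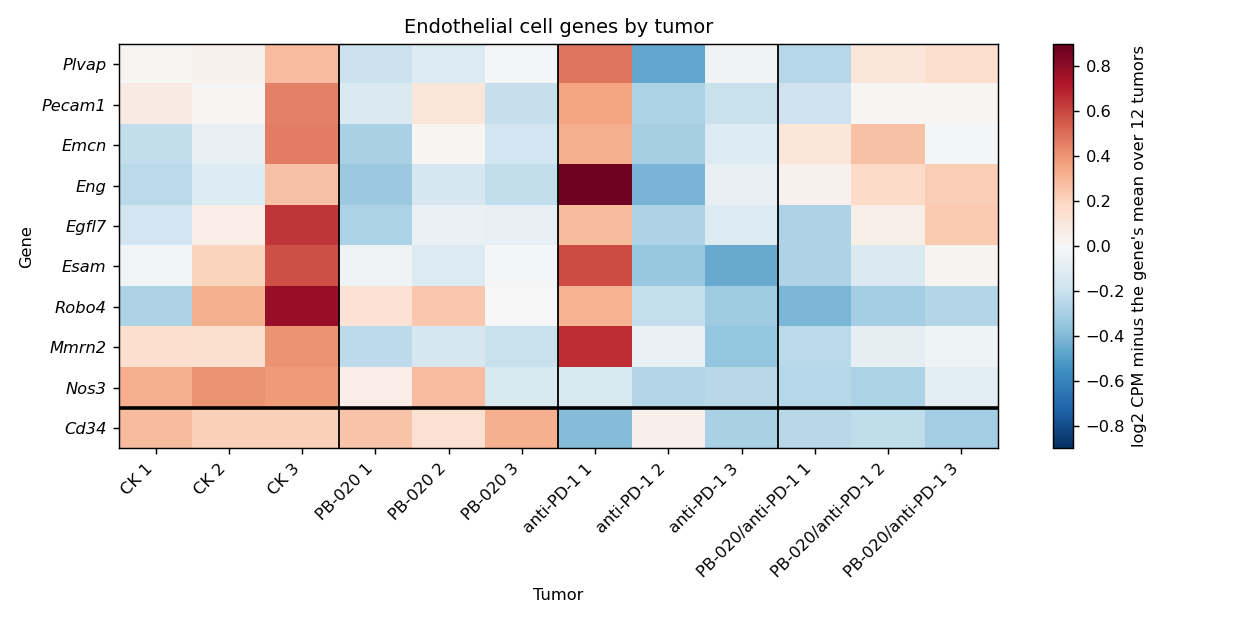
The 10 genes (rows) in the 12 tumors (columns, grouped by treatment), coloured by log2 CPM minus the gene's mean over all tumors, red above and blue below. CK 3 and anti-PD-1 1 are red for most of the upper 9 rows, and the row of Cd34 below the line splits between the 6 tumors without and the 6 with anti-PD-1, of which anti-PD-1 2 alone is not below its mean.

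Genes outside the list were ranked by their r with the mean of the 10 members over the 12 tumors. The 10 most like were Tie1 (0.97), C130074G19Rik (0.96), Rasgrp3 (0.96), Galns (0.96), Tbx2 (0.95), Dchs1 (0.92), Lama4 (0.92), Sh2d3c (0.92), Cdh5 (0.92) and Mtus1 (0.91). Tie1, which encodes an endothelial receptor kinase, ranged from 2.48 FPKM in anti-PD-1 3 to 5.08 FPKM in CK 3, and Cdh5 from 8.24 FPKM in PB-020/anti-PD-1 1 to 18.7 FPKM in CK 3. Lama4 encodes a laminin chain of vessel basement membrane. Tie1 was also first over deviations from the group means (r = 0.99), without anti-PD-1 1 (0.97) and against the 9 genes without Cd34 (0.98). Of the 10 genes, 8 were again among the first 10 without anti-PD-1 1, 7 against the 9 genes without Cd34, and 3 over deviations from the group means. Against the mean of the 9 genes, 31 of 39 other pan-endothelial genes had r above 0.5 (79.5%), compared with 1379 of 13553 other genes tested (10.2%). This was not particular to endothelial genes, since 7 of 9 pan-leukocyte and macrophage markers also had r above 0.5 (77.8%). The share was 42.9% of 14 pericyte and smooth muscle markers, 40% of 10 fibroblast markers and 0 of 10 T cell markers.

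Cd34 was the gene with the clearest difference between groups, and it fell in both groups that received anti-PD-1. It was at 488, 469 and 473 FPKM in CK, 474, 437 and 498 with PB-020, 308, 411 and 324 with anti-PD-1 and 335, 337 and 324 with both agents. All 6 tumors with anti-PD-1 lay below all 6 without it, a pattern found for 4.5% of the genes tested and for no other member. In the fit over all genes (edgeR's quasi-likelihood test, Benjamini-Hochberg adjustment), the log2 change was -0.44 ± 0.10 (SE) in anti-PD-1 against CK (adjusted p = 0.0227), -0.50 ± 0.10 in PB-020/anti-PD-1 against CK (adjusted p = 0.00691) and -0.50 ± 0.10 in PB-020/anti-PD-1 against PB-020 (adjusted p = 0.0295). Averaged over both levels of PB-020, 6 tumors against 6, it was -0.47 ± 0.07 with a 95% interval of -0.62 to -0.31 (adjusted p = 0.00113). PB-020 alone left it at -0.00 ± 0.10 against CK, with an interval of -0.22 to 0.22.

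**Figure D3:**
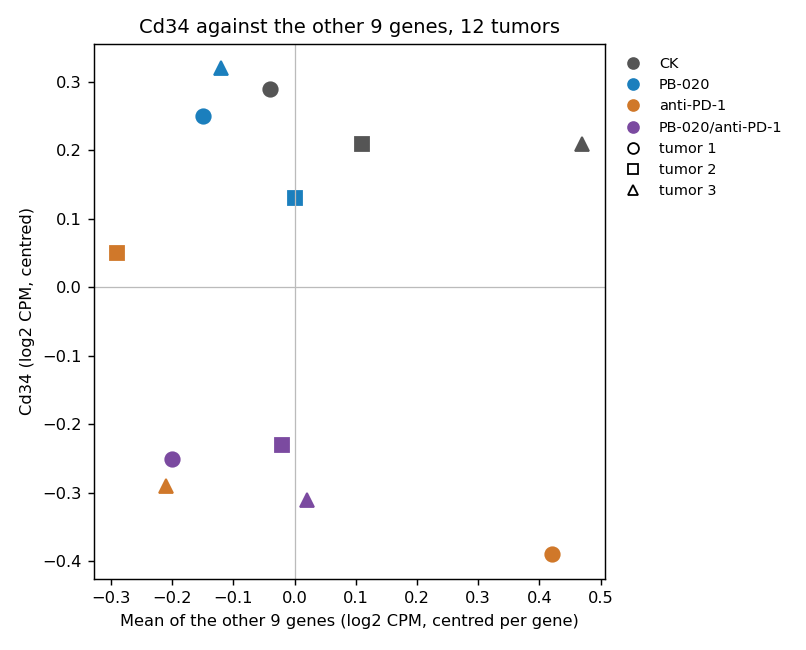
Cd34 (vertical axis) against the mean of the other 9 genes (horizontal axis), both as log2 CPM centred per gene, for the 12 tumors coloured by group with a marker for the tumor number. The 6 tumors without anti-PD-1 lie at 0.13 to 0.32 on the vertical axis and the 6 with it at -0.39 to 0.05, while both sets span similar values on the horizontal axis, with CK 3 at 0.47 and anti-PD-1 1 at 0.42.

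Because Cd34 is also made by some fibroblasts, its level was set beside the 10 fibroblast markers. Their sum was 1669 to 2417 FPKM in the 6 tumors without anti-PD-1 and 752 to 1529 FPKM in the 6 with it, so that the sums did not overlap. The markers were not uniform: their median log2 change with anti-PD-1 was 0.44, above 0 where the sum was lower, since the sum is carried by Col3a1 and Dcn. Over the 12 tumors 4 had r above 0 with Cd34, including Col3a1 (0.90), Dcn (0.88) and Pdgfra (0.84), and 6 had r below 0, including Col1a1 (-0.73) and Col14a1 (-0.86). Over deviations from the group means, r was 0.39 for Col3a1, 0.31 for Dcn, 0.33 for Pdgfra, -0.80 for Col1a1 and -0.77 for Col14a1. Col3a1 (-1.29 ± 0.15, adjusted p = 0.000591), Dcn (-1.16 ± 0.17, adjusted p = 0.0019) and Pdgfra (-0.62 ± 0.08, adjusted p = 0.000577) fell in the comparison of all 6 tumors with anti-PD-1 against the 6 without (log2 change ± SE, edgeR). Col1a1 was at 340 FPKM in anti-PD-1 1 and 60.4 to 187 FPKM in the other tumors. The part of fibroblasts, of MC38 tumor cells or of other cells in the level and the fall of Cd34 was not tested.

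Nos3, the endothelial nitric oxide synthase, was the second gene to fall. It was at 2.15, 2.32 and 2.29 FPKM in CK, 1.77, 2.10 and 1.59 with PB-020, 1.56, 1.44 and 1.42 with anti-PD-1 and 1.45, 1.42 and 1.64 with both agents. The 3 CK tumors were above the 9 others, and the PB-020 tumors lay between, with PB-020 3 within the range of the anti-PD-1 groups. The log2 change against CK was -0.60 ± 0.14 (SE) in anti-PD-1 (adjusted p = 0.0224) and -0.59 ± 0.14 in PB-020/anti-PD-1 (adjusted p = 0.0126, edgeR). In PB-020 it was -0.30 ± 0.14, with an unadjusted p of 0.0467 and an adjusted p of 0.874. Over 6 tumors against 6 the anti-PD-1 change was -0.44 ± 0.10 (95% interval -0.66 to -0.23, adjusted p = 0.00678). Atg9b, which overlaps the end of Nos3 on the opposite strand, was at 13.4 to 35.8 FPKM over the 12 tumors. Over 6 tumors against 6 it rose, with a log2 change of 0.58 (adjusted p = 0.0298, edgeR). In PB-020/anti-PD-1 against CK its change of 0.66 was not called (adjusted p = 0.0757, edgeR). The part of reads from the shared stretch in the level of Nos3 was not tested.

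Robo4 had the lowest estimate of the 10 genes in the combination but did not pass the threshold. It was at 2.69, 4.01 and 5.33 FPKM in CK, 3.44, 4.10 and 3.52 with PB-020, 4.03, 2.66 and 2.65 with anti-PD-1 and 2.27, 2.73 and 2.71 with both agents. CK 1 lay among the treated tumors, and the CK tumors spanned almost the whole range. The log2 change in PB-020/anti-PD-1 against CK was -0.67 ± 0.23 (SE, adjusted p = 0.0619), and over 6 tumors against 6 it was -0.42 ± 0.16 (adjusted p = 0.0767, edgeR). Both unadjusted p values were below 0.05, at 0.0127 and 0.0226.

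The other 7 genes did not pass the threshold in any comparison. Pecam1 was at 17.2, 16.7 and 22.9 FPKM in CK, 14.8, 17.6 and 14.2 with PB-020, 20.9, 13.3 and 13.97 with anti-PD-1 and 14.3, 16.2 and 16.7 with both agents. Eng was at 7.63, 8.40 and 11.1 FPKM in CK, 7.13, 8.09 and 7.73 with PB-020, 16.8, 6.69 and 8.53 with anti-PD-1 and 9.29, 10.1 and 10.6 with both agents. For both genes each treated group overlapped CK, and 1 tumor of anti-PD-1 gave that group most of its spread. The 3 combination tumors lay above the 3 PB-020 tumors for Eng, whereas these 2 groups overlapped for Pecam1. Over 6 tumors against 6 the anti-PD-1 change was -0.09 ± 0.12 for Pecam1 (95% interval -0.36 to 0.17) and 0.32 ± 0.20 for Eng (-0.13 to 0.77), the highest value among the 10 genes (log2 change ± SE). Plvap ranged from 13.5 to 26.4 FPKM and Emcn from 10.1 to 17.6 FPKM over the 12 tumors, with changes of 0.03 ± 0.14 and 0.09 ± 0.13. Egfl7 ranged from 6.24 to 12.4 FPKM and Esam from 4.07 to 8.69 FPKM, with changes of -0.04 ± 0.15 and -0.17 ± 0.17. Mmrn2 was at 3.10, 3.13 and 3.79 FPKM in CK and 2.36, 2.5 and 2.41 in PB-020, and its change over the anti-PD-1 groups was -0.01 ± 0.14. Over 6 tumors against 6, the 95% intervals of these 7 genes ran from -0.54 (lower end, Esam) to 0.77 (upper end, Eng). Comparisons of 3 tumors against 3 gave wider intervals. Esam in the combination against CK had -0.930 to 0.127, and Eng in the combination against PB-020 had -0.263 to 1.025. A p above the threshold does not show that these genes did not differ.

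The design asked what PB-020 does alone, what anti-PD-1 does alone, and whether the combination adds to either. With PB-020 alone, 0 of the 10 genes and 0 of 13563 genes were called at an adjusted p under 0.05 by edgeR (0% in either direction), with 6 genes called by DESeq2 and 0 by limma, none of them a member. At an unadjusted p under 0.05 there were 2 members, Mmrn2 (-0.44 ± 0.20) and Nos3, and 741 genes in all. All 10 estimates were below 0, with a median log2 change of -0.25 beside -0.00 for all genes tested. All 10 estimates rest on the same 3 CK tumors, and CK 3 was the highest of these for 8 genes, all but Cd34 and Nos3. The directions of the 10 genes are therefore not separate observations. All 3 tumors of PB-020 lay below all 3 of CK for Mmrn2, Nos3 and Plvap, a pattern found for 6.47% of the genes tested. Without CK 3, the estimate for Robo4 was 0.07, that is, above 0. The lowest adjusted p among the 10 genes was 0.874.

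With anti-PD-1 alone, 2 of the 10 genes were called, Cd34 and Nos3, both lower, and 4.08% of the genes tested were called lower. Of the 10 estimates 9 were below 0, with a median of -0.22. All 3 tumors lay below all 3 CK tumors for the same 2 genes and for 15.2% of the genes tested. The calls rested on few tumors. Without CK 2 or without anti-PD-1 3 no member was called, without CK 1 Nos3 alone, without CK 3 Cd34 alone, and without anti-PD-1 1 Nos3 and Esam. A fit of the CK and anti-PD-1 tumors by themselves called 0 members and 3 genes in all.

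With both agents against CK, the same 2 genes were called lower, at a background of 9.6% of the genes tested, and 8 of the 10 estimates were below 0 with a median of -0.30. All tumors of the combination lay below all CK tumors for Cd34, Mmrn2 and Nos3 and for 21.2% of the genes tested. Without CK 2 or without PB-020/anti-PD-1 2 only Cd34 was called, without CK 1 Robo4 was called as well, and without anti-PD-1 1 the called genes were Cd34, Nos3, Robo4 and Mmrn2. DESeq2 also called Robo4. Without CK 3 and anti-PD-1 1 together, Cd34 and Nos3 were called lower and Eng was called higher (log2 change 0.34, adjusted p = 0.0415), an alternative chosen after seeing the data. Against PB-020, the combination differed in 1 of the 10 genes, Cd34, with 2.11% of genes called lower, and that call was lost without any 1 of PB-020 1, PB-020 3 or the 3 combination tumors (adjusted p 0.0684 to 0.133). The fit of these 2 groups by themselves called 3 members, Cd34 and Robo4 lower and Eng higher. Both backgrounds (9.6% and 2.11%) belong to the fit of all tumors. Shares of all genes called in the other fits are not given here.

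Whether PB-020 adds to anti-PD-1 was asked directly. Against anti-PD-1 alone, 0 of the 10 genes and 0% of genes tested were called, although 984 genes had an unadjusted p under 0.05, none of them a member, and DESeq2 called 1 gene and limma 0. The log2 change was -0.07 for Cd34 (95% interval -0.28 to 0.15) and 0.01 for Nos3 (-0.30 to 0.31). The interaction, which is the combination minus each single agent plus CK on the log2 scale, was called for 0 of the 10 genes and 0% of the genes tested (310 genes and 0 members at an unadjusted p under 0.05, and 0 genes by DESeq2 or limma). Its estimate was -0.06 ± 0.14 for Cd34 and 0.31 ± 0.20 for Nos3. The PB-020 effect over both levels of anti-PD-1, 6 tumors against 6, was called for 0 of the 10 genes and 0% of genes, with all 10 estimates below 0 (median -0.15) and Mmrn2 as the only member of 1475 genes at an unadjusted p under 0.05. DESeq2 called 61 genes there and limma 0, with 0 members by either.

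**Figure D4:**
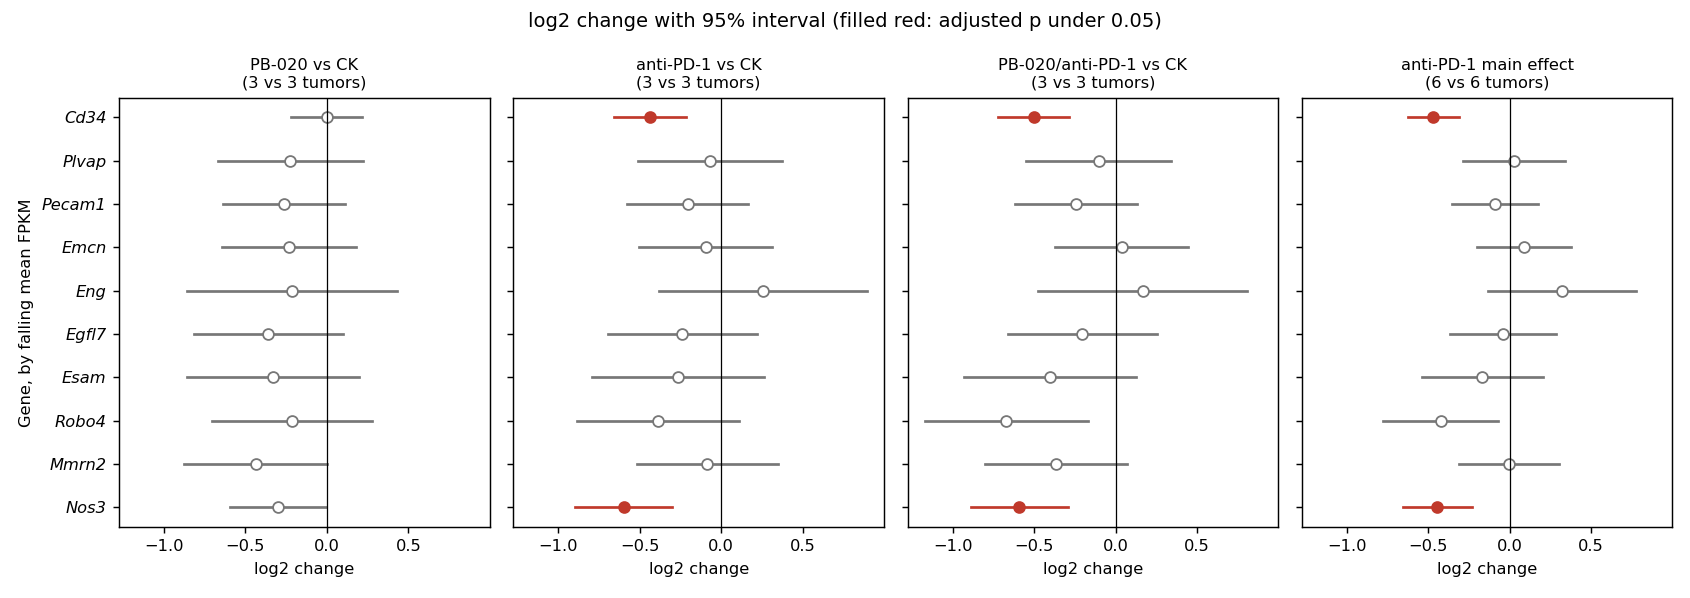
The log2 change of the 10 genes (rows, by falling mean FPKM) in each treated group against CK and in the 6 tumors with anti-PD-1 against the 6 without, with 95% intervals from the edgeR fit as lines. Filled red marks an adjusted p under 0.05, which Cd34 and Nos3 reach in the 3 panels with anti-PD-1, at -0.44 to -0.60, and no gene reaches with PB-020 alone.

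The 6 tumors with anti-PD-1 against the 6 without gave the most precise comparison. In it 2 of the 10 genes were called lower and 0 higher, at backgrounds of 12.3% lower and 11.8% higher. This share of the 10 genes is near that of all genes, with a median log2 change of -0.07 beside 0.00 for all genes tested. Without anti-PD-1 1, Esam and Robo4 were called lower as well, 4 of the 10. Without CK 1, Robo4 was called lower, 3 of the 10. Those backgrounds belong to the fit of all 12 tumors, and the shares of all genes called in these refits are not given here.

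Other genes of the endothelium were read from lists in the same comparison, each as counts of its tested genes. Over all genes tested, 12.3% were called lower and 11.8% higher. These shares belong to the fit of all 12 tumors and are the background for every list below. Of 39 other pan-endothelial genes 4 were lower and 2 higher, with a median log2 change of -0.13. Neither count exceeded the share of all genes. Ramp2, a subunit of the adrenomedullin receptor, was at 42.0 ± 7.44 FPKM in CK and 37.2 ± 5.99 FPKM with PB-020 (SD, n = 3). With anti-PD-1 it was at 20.2 ± 4.99 FPKM and with both agents at 18 ± 3.09 FPKM. Over 6 tumors against 6 it fell, with a change of -1.04 ± 0.14 (SE, adjusted p = 0.000823, edgeR). Adgrl4, an adhesion receptor of vessels, fell by 0.50 on the log2 scale and Cldn5, a claudin of tight junctions, fell by 0.60. Ecscr, an endothelial surface protein, rose by 0.47 ± 0.09 (adjusted p = 0.00333). Without anti-PD-1 1 the counts were 8 lower and 2 higher, and without anti-PD-1 3 or without PB-020 3 the total was 3.

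Of 16 tip cell and sprouting genes 9 were lower and 0 higher, with a median of -0.48. The difference from the 10 genes was not tested. Apln, the ligand of the apelin receptor, was at 12.6 ± 3.28 FPKM in CK, 10.9 ± 1.51 with PB-020, 6.37 ± 0.791 with anti-PD-1 and 6.16 ± 0.998 with both agents (SD, n = 3), and its change was -0.89 ± 0.13 (SE, adjusted p = 0.0016). Dll4, the Notch ligand of tip cells, fell by 0.63 over 6 tumors against 6 (adjusted p = 0.00253, edgeR). It was at 2.92 to 4.74 FPKM in CK, 2.43 to 3.1 FPKM with PB-020 and 1.83 to 2.22 FPKM in the 6 tumors with anti-PD-1. Igfbp3 fell by 0.64 and Trp53i11 fell by 0.66. For these 4 genes, which were picked by p in the same comparison, all 6 tumors with anti-PD-1 lay below the 6 without, a pattern of 4.5% of all genes tested. Without CK 3 and anti-PD-1 1 together 7 of the 16 were lower, and the count was 6 without CK 2, without anti-PD-1 3 or without PB-020/anti-PD-1 3. Igfbp3 and several other genes of this list are also made by cells other than endothelium.

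Genes of capillary endothelium followed with 5 of 12 lower and 0 higher (median -0.49). Gpihbp1, which anchors lipoprotein lipase to capillaries, was at 17.6, 20.9 and 30.6 FPKM in CK and 8.77, 11.7 and 8.32 FPKM in anti-PD-1, and fell by 0.85 (adjusted p = 0.00164). Kitl, Rgcc and Aqp1 fell by 0.75, 0.55 and 0.38. Arterial genes had 2 of 12 higher and 0 lower: the gap junction genes Gja4, which rose by 1.54 ± 0.26 (adjusted p = 0.00335), and Gja5, by 1.15 ± 0.35 (adjusted p = 0.0309). Gja4 was at 2.30 to 3.85 FPKM in the 6 tumors without anti-PD-1 and at 5.09 to 15.1 in the 6 with it. With each of the 12 tumors left out in turn, the call of Gja4 was lost in 0 fits and that of Gja5 in 10 (adjusted p up to 0.0679), all but those without CK 3 or without anti-PD-1 2. Genes of venous endothelium and leukocyte adhesion had 2 of 11 higher, the chemokine gene Ccl21a (2.98 ± 0.86) and the adhesion gene Icam1 (0.87 ± 0.27), and 1 lower, Ephb4 (-0.15 ± 0.04). Without anti-PD-1 1 the list had 0 of 11 higher, and over the 12 fits that left out 1 tumor the call was lost in 8 for Ccl21a, 9 for Icam1 and 7 for Ephb4. Lymphatic genes were divided, with Lyve1 (-2.18 ± 0.36) and Sned1 (-1.09 ± 0.22) lower and Fgl2 (1.07 ± 0.18) and Ccl21a higher among 7 tested. Lyve1 and Fgl2 are also macrophage genes.

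**Figure D5:**
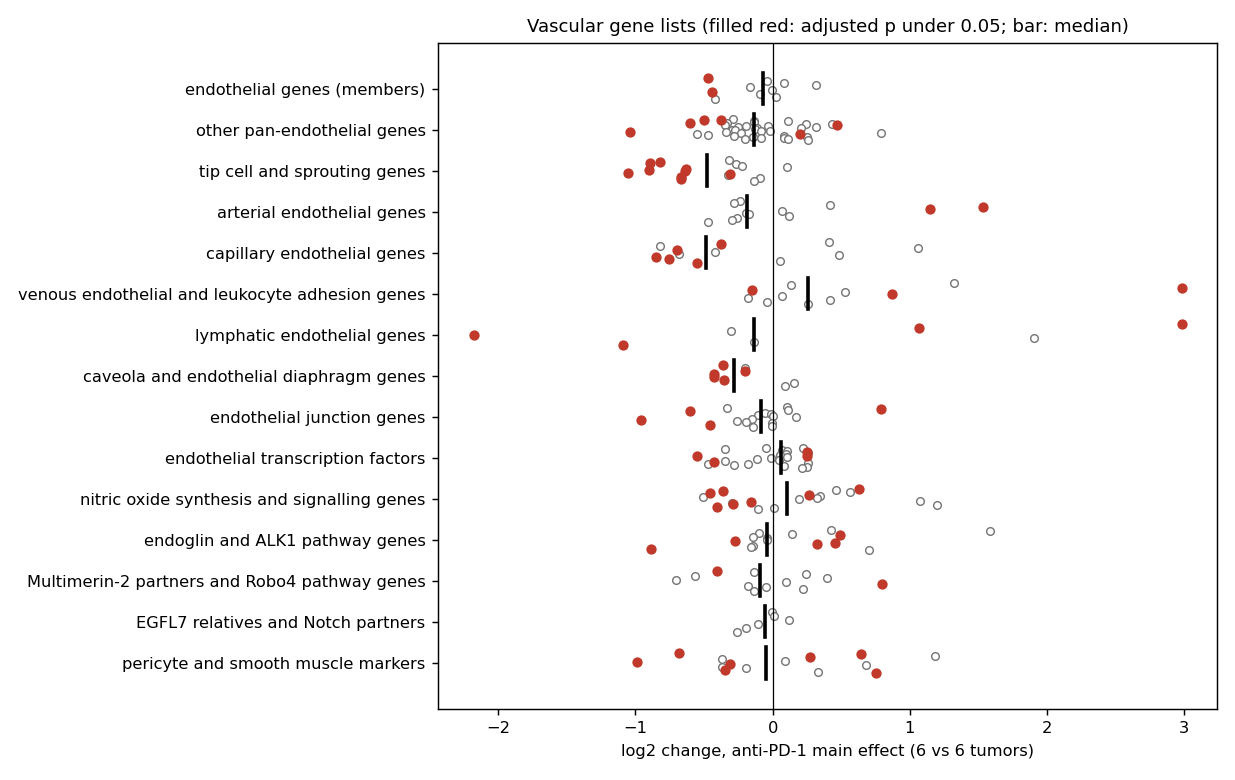
The log2 change of each tested gene (points) in 15 lists of vascular genes, for the 6 tumors with anti-PD-1 against the 6 without, with the list median as a black bar and filled red for an adjusted p under 0.05. The 10 endothelial genes have a median of -0.07, tip cell genes -0.48 and capillary genes -0.49, and the lists overlap widely.

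The partners of single members were read in the same way, beside 12.3% of all genes called lower and 11.8% higher. For Nos3, 18 genes of nitric oxide synthesis and signalling held 5 lower and 2 higher (median 0.10). Pts, of the synthesis of the cofactor tetrahydrobiopterin, fell by 0.40, Ddah2, which degrades an inhibitor of the enzyme, fell by 0.46, and Pde5a, which degrades cyclic GMP, fell by 0.29. Of 8 caveola genes 5 were lower and 0 higher, among them Ehd2 (-0.35 ± 0.05), Cavin3 (-0.42 ± 0.09), Cavin2 (-0.43 ± 0.11) and Cav1 (-0.36 ± 0.10), whose protein binds the synthase. Caveola genes are strongly made by fibroblasts, whose markers are given above. The call was lost in 5 of the 12 fits for Cav1 and in 3 each for Cavin2 and Pde5a. The count of caveola genes was 2 without CK 2 or without anti-PD-1 3 and 3 without PB-020 1, PB-020 3 or anti-PD-1 1.

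For Eng, 15 genes of the endoglin and ALK1 pathway held 3 higher and 2 lower. The related co-receptor Tgfbr3 fell by 0.88 ± 0.13 (adjusted p = 0.00165) and Smad5, which carries the signal, fell by 0.28, while the inhibitory Smad7 and Smad6 rose by 0.33 and 0.46. The call of Smad6 was lost in 10 of the 12 fits that left out 1 tumor (adjusted p up to 0.0919), all but those without CK 3 or without anti-PD-1 2, and that of Smad7 in 0. For Mmrn2 and Robo4, 12 partners held 1 lower, the surface protein Cd248 (-0.40 ± 0.06, adjusted p = 0.00139), and 1 higher, the ligand Slit3 (0.80 ± 0.24, adjusted p = 0.0351). The call of Slit3 was lost in 8 of the 12 fits (adjusted p up to 0.0823), and its estimate was 0.50 without anti-PD-1 1, where the call was kept. For Pecam1 and Esam, 18 junction genes held 3 lower and 1 higher. Jup, plakoglobin, was at 24.4 ± 1.72 FPKM in CK and 17 ± 0.506 FPKM with PB-020 (SD, n = 3). With anti-PD-1 it was at 11.3 ± 2.99 FPKM and with both agents at 9.67 ± 0.774 FPKM. Over 6 tumors against 6, Jup fell by 0.96 and Plpp3 fell by 0.46. Cgn, cingulin, rose by 0.79 in that comparison. It was at 0.247 ± 0.0751 FPKM in CK, 0.34 ± 0.1 with PB-020, 0.527 ± 0.206 with anti-PD-1 and 0.473 ± 0.0611 with both agents. The calls of Cgn and Plpp3 were each lost in 8 of the 12 fits and that of Cldn5 in 5, while that of Jup was lost in 0. For Egfl7, 0 of 6 relatives and Notch partners were called by edgeR or limma in the same comparison, and none had an unadjusted p under 0.05 there (edgeR). The count by DESeq2 is not given here. In the combination against CK, 1 of the 6 had an unadjusted p under 0.05 and 0 were called (edgeR). The most abundant were Agpat2 (-0.00 ± 0.06) and Notch2 (-0.11 ± 0.07).

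Of 24 endothelial transcription factors 2 were lower, Gata2 (-0.55 ± 0.11) and Mef2c (-0.43 ± 0.09), and 2 higher, Foxo1 (0.25 ± 0.06) and Etv6 (0.25 ± 0.07), with a median of 0.06. The call of Etv6 was lost in 5 of the 12 fits. Pericyte and smooth muscle markers, the cells that cover vessels, had 4 of 14 lower and 3 higher. Kcnj8 and Abcc9, subunits of the potassium channel of pericytes, fell by 0.99 and 0.68, Pdgfrb fell by 0.35 and Cspg4 rose by 0.27. Without anti-PD-1 1 the counts were 7 lower and 1 higher.

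Markers of cells that can carry or surround endothelial transcripts moved between the groups. The 10 T cell markers in the table had 9 raised of 10 tested, among them Cd3d (1.84 ± 0.30), Cd2 (1.52 ± 0.25), Cd3e (1.55 ± 0.28) and Lck (0.93 ± 0.18), and their sum was 13.8 to 25.7 FPKM without and 31.0 to 77.3 FPKM with anti-PD-1. The erythroid genes were lower for 5 of 5 tested, among them Alas2 (-2.42 ± 0.43), Hbb-bs (-2.20 ± 0.37), Hbb-bt (-2.30 ± 0.43) and Hba-a1 (-2.21 ± 0.41), and their sum was 449 to 1556 FPKM without and 101 to 380 FPKM with anti-PD-1. Of 5 platelet genes 2 were lower, Gp1bb (-0.56 ± 0.13) and Itga2b (-0.60 ± 0.17), whose call was lost without CK 3 or without PB-020/anti-PD-1 1. Of 9 pan-leukocyte and macrophage markers Ptprc alone was higher (0.66 ± 0.14). Fibroblast markers had 3 of 10 lower and 0 higher, and 0 of 10 skeletal muscle markers were called by edgeR (2 at an unadjusted p under 0.05, 2 by DESeq2 and 0 by limma), with Acta1 at 176 FPKM in anti-PD-1 1 and 3.19 to 24.5 FPKM in the other 11 tumors and Tnnt3 at 109 FPKM and 2.17 to 9.49 FPKM. Krt14 alone was higher of 5 adipocyte and skin markers (0.76 ± 0.12), and Cdh1 did not pass (0.41 ± 0.14, adjusted p = 0.0517 by edgeR), although DESeq2 called it. The part of these cells in the levels of the 10 endothelial genes was not tested.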

How the data were processed

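Tumors of 12 mice, 3 in each of 4 groups, were measured by RNA sequencing, and groups and tumor numbers came from the sample labels. The authors sequenced pairs of 150-base reads on an Illumina instrument, aligned them with Bowtie2 at default settings to the mouse genome (GRCm38.p6 in the labels, which also name HISAT) and quantified genes with RSEM. Tool versions and the annotation are not given in the sources used here. The authors deposited expected counts, which are not normalized, FPKM, which are scaled to transcript length and library total, and TPM, which are scaled to the same total in each library. The deposited group averages were not used.

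Expected counts were rounded, filtered with filterByExpr (minimum count 10), scaled by TMM and fitted in edgeR 4.0.16 (R 4.3.3) with 4 group means over all 12 libraries by the robust quasi-likelihood method. Each test was two-sided, with Benjamini-Hochberg adjustment over 13563 genes and a threshold of 0.05. Intervals are 95% and rest on the fitted standard error. The sources used here say no more of the replicates than that they are separate tumors, and p values measure the spread between these. The sum of expected counts per library was 16545394 to 17217035, which limits precision mainly for the least abundant genes. FPKM means and SD are over 3 tumors. Likeness used log2 CPM (prior count 2). Promoters and gene positions came from RefSeq, with 99.3% of gene numbers matched. The tests were run on simulated data before use.

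The 10 genes, the other lists and the tests were chosen with earlier results of these data known. Named are the 10 genes, in each other list up to 4 genes with the smallest p among those called in the comparison of 6 tumors against 6 (or the 2 most abundant where none was called), the 10 genes most like the members, and defining markers of other cells. For 1 gene that this rule names, the result is not reported here. Col1a1, Col14a1, Atg9b, Fpgs and Gtpbp3 fall outside that rule and were picked with their values in view. Leaving out CK 3 and anti-PD-1 1 together, and likeness without Cd34, were added after seeing the data. Alternatives were DESeq2 1.42.0, limma 3.58.1 on log2(FPKM + 1) and log2(FPKM + 0.1), no filter, a strict filter (50 counts in 3 libraries), library size alone, only the groups compared, a replicate block, the study's kind of rule (unadjusted p under 0.05 and at least a 1.5-fold difference) on the fit, the same rule on per-gene tests of FPKM, and each library left out.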

Additional observations from a re-analysis of the deposited data

How the results depend on the processing

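With 3 tumors a group, 1 tumor decided many calls. DESeq2, limma on FPKM, no filter, the strict filter and library size alone kept the number of members called within 1.5 times of that reported in every comparison. The number of members called in anti-PD-1 against CK was 2 as reported, 0 in a fit of only those groups, 0 without both high tumors (CK 3 and anti-PD-1 1, chosen after seeing the data), 1 by the rule of a 1.5-fold difference and unadjusted p under 0.05, 1 by the per-gene test on FPKM, and 0 to 2 when single tumors were left out. For the combination against CK it was 0 by the per-gene test on FPKM and 1 to 4 with tumors left out. For the combination against PB-020 it was 3 in a fit of only those groups, 2 without both high tumors, 0 by the fold change rule and 0 to 1 with tumors left out. For the anti-PD-1 main effect it was 0 by the fold change rule and 2 to 4 with tumors left out. The count of other pan-endothelial genes called was 3 to 10 with tumors left out and that of lowered caveola genes was 2 to 6. Numbers of all genes called in these settings are not set beside these counts, and the cause of these shifts was not tested.

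The labels do not say that the replicate numbers pair the tumors. Of 18 pairs with the same number 2 had correlated deviations over 0.1 (-0.210 to 0.289). Pairs with different numbers ran from -0.218 to 0.355, so that with 3 tumors a group these values cannot decide on pairing. With the number as a replicate block, 2 members were called in anti-PD-1 against CK, 2 in the combination against CK, 1 against PB-020 and 2 in the main effect, and 5 other pan-endothelial genes. The block changed no count by over 1.5 times and turned the change of Cd34 in PB-020 against CK to 0.000112 and of Agpat2 to 0.0019.

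Estimates near 0 changed sign in some settings. Plvap in the main effect was -0.0105 by limma on log2(FPKM + 1), -0.0121 with + 0.1 and -0.0647 without both high tumors. Agpat2 was 0.0033 by DESeq2, 0.0148 and 0.0156 by limma and 0.0263 without both high tumors. Acta1 was -0.26 and -0.34 by limma and -1.05 without both high tumors, where Tnnt3 was -0.74. Without both high tumors, Robo4 was 0.0717 in PB-020 against CK, Eng -0.0512 in anti-PD-1 against CK, Egfl7 0.0769 in the combination against CK and 0.0095 in the main effect. With single tumors left out, the range in PB-020 against CK was -0.0488 to 0.0451 for Cd34 and -0.45 to 0.0716 for Robo4. In anti-PD-1 against CK it was -0.30 to 0.13 for Emcn, -0.22 to 0.49 for Eng, -0.44 to 0.10 for Mmrn2, -0.35 to 0.12 for Plvap and -0.42 to 0.0307 for Egfl7. In the combination against CK it was -0.0928 to 0.28 for Emcn, -0.18 to 0.0134 for Plvap and -0.36 to 0.0763 for Egfl7. In the main effect it was -0.0151 to 0.21 for Emcn, -0.18 to 0.0922 for Mmrn2, -0.11 to 0.12 for Plvap, -0.13 to 0.0990 for Egfl7, -0.0338 to 0.0465 for Agpat2, -0.88 to 0.68 for Acta1 and -0.62 to 1.02 for Tnnt3. In TPM, 29 of 30 ratios of a treated group to CK lay on the same side of 1 as in FPKM.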
